A study of Mus musculus with 96 samples.

Results

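The uroplakins are the membrane proteins that cover the apical surface of the bladder epithelium. Their genes were taken as the rows with the symbols Upk1a, Upk1b, Upk2, Upk3a, and Upk3b, 5 of the 41575 genes counted, and followed through 16 tissues of mice aged 3 weeks, wild-type or Scx-/-. Scx encodes scleraxis, a transcription factor of tendon and ligament progenitors, and the Scx-/- genotype is a deletion in the whole body. RNA of whole frozen organs was sequenced as 96 multiplexed bulk libraries, 3 per genotype for bladder, kidney, and lung, the gut (stomach, intestine, rectum), liver and spleen, the skeleton (bone, cartilage, muscle), heart and vascular tissue, brain (cortex, hippocampus), and adipose tissue. Sex, strain, the deleted part of Scx, and whether organs with the same replicate number came from 1 mouse were not stated by the labels or methods read here, so p-values measure the spread between these libraries.

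Uroplakins work in pairs. Upk1a and Upk1b encode tetraspanins, which cross the membrane several times and bind a partner anchored by a single span: Upk1a pairs with Upk2, and Upk1b with Upk3a or, in its place, Upk3b. The pairs leave the endoplasmic reticulum together and assemble into rigid plaques on the umbrella cells, the outermost layer of the urothelium, where they help to make the bladder wall impermeable to urine. Upk1a, Upk1b, Upk2, and Upk3a are called plaque uroplakins here, and Upk3b is also known from mesothelium, the lining of body cavities.

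Expression is given as CPM, the count of a gene scaled to a common library total. A library held 11244 to 1658192 counts, with a median of 251640, and the wild-type bladder libraries (437302 to 587936) were deeper than the Scx-/- ones (243008 to 412594). Reads came mostly from transcript ends and were not normalized to gene length, so levels were compared between libraries. An order of genes by CPM, as in the most abundant of a list, served only to choose those named. Counts are reads and not molecules, and intervals on them cover counting error only. Some libraries stood apart: the 10 pancreatic acinar genes added up to 356343 to 450875 CPM in the 6 adipose libraries, wild-type heart replicate 2 held 11244 counts in all, and Scx-/- rectum replicate 1 had 2439 CPM of smooth muscle genes against 18791 to 28542 CPM in the other rectum libraries. The authors of the series read brown fat genes in the vascular samples as contamination and left that tissue out of their later analysis. The vascular libraries were kept here. Scx itself was at 0 in all 6 bladder libraries, so it could not check the genotype labels there.

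The 5 genes lie on separate chromosomes, and none overlaps another annotated gene. In mm10 (GRCm38, GENCODE M21), Upk1a lies on chromosome 7 at 30603092 to 30612847 (minus strand, 8 exons), Upk1b on chromosome 16 at 38773184 to 38800328 (minus strand, 8 exons in its longest transcript), and Upk2 on chromosome 9 at 44452715 to 44454976 (minus strand, 5 exons). Upk3a lies on chromosome 15 at 85017141 to 85022547 (plus strand, 6 exons) and Upk3b on chromosome 5 at 136038496 to 136046487 (plus strand, 6 exons). Because the plaque genes were high together in bladder, the promoters of 1 gene of each plaque pair are shown with that of Upk3b, which had a lower contrast. Each is the RefSeq sequence of GRCm38.p6, from 250 bases before the start site to 50 after it, 5′ to 3′ on the strand of the gene, with matches to the motifs searched in capitals. Upk1b and Upk2 had no matching entry.
Upk1a, chr7:30612685-30612984 (minus strand): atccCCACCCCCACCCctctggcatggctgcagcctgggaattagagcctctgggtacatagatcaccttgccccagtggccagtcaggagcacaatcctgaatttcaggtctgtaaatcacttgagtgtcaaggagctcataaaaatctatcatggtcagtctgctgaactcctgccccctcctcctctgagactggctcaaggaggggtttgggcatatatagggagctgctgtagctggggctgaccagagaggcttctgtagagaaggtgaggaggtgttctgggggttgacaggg
Upk3a, chr15:85016891-85017190 (plus strand): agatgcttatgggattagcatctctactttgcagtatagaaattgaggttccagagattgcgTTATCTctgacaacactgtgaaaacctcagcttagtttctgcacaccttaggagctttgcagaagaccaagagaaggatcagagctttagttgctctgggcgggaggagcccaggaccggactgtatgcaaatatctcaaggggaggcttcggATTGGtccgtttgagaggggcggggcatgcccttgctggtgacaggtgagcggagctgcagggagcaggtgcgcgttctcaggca
Upk3b, chr5:136038246-136038545 (plus strand): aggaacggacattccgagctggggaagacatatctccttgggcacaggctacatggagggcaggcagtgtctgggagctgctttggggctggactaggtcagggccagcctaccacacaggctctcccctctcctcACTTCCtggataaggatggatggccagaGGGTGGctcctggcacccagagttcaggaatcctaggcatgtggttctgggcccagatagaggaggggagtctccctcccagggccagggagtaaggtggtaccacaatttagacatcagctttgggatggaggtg
The motifs were searched on both strands as exact letters. CCACCC, the core of KLF sites, matched the Upk1a promoter at -246 and -240 from the start site, and 1 stretch of the Upk3b promoter at -86, and 31.5% of the 32851 mouse promoters of this length held it. CCAAT, the box bound by NF-Y, matched the Upk3a promoter at -35 (37.4% of all promoters), and AGATAA, bound by GATA factors, matched it at -188 (11.2%). GGAAGT, an ETS site, matched the Upk3b promoter at -114 (23.8%). TATAAA (13.6%) and AACCGG, a Grainyhead-like site (6.83%), matched none of the 3. No motif was held by all 3 promoters, and the matches are a description of letters. The annotated GENCODE start of Upk1a lies 113 bases upstream of the RefSeq start used here.

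Bladder held nearly all uroplakin reads. Of all counts of a gene in the 96 libraries, the 6 bladder libraries held 97.8% for Upk1a (6349 of 6494), 96.6% for Upk1b (4234 of 4384), 98.6% for Upk2 (1744 of 1768), and 98.4% for Upk3a (6289 of 6393). For Upk3b they held 75.6%, 62 of 82 counts. Every bladder library was above each of the 90 other libraries for all 4 plaque genes, while 2 libraries outside bladder reached the lowest bladder value of Upk3b.

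**Figure D1:**
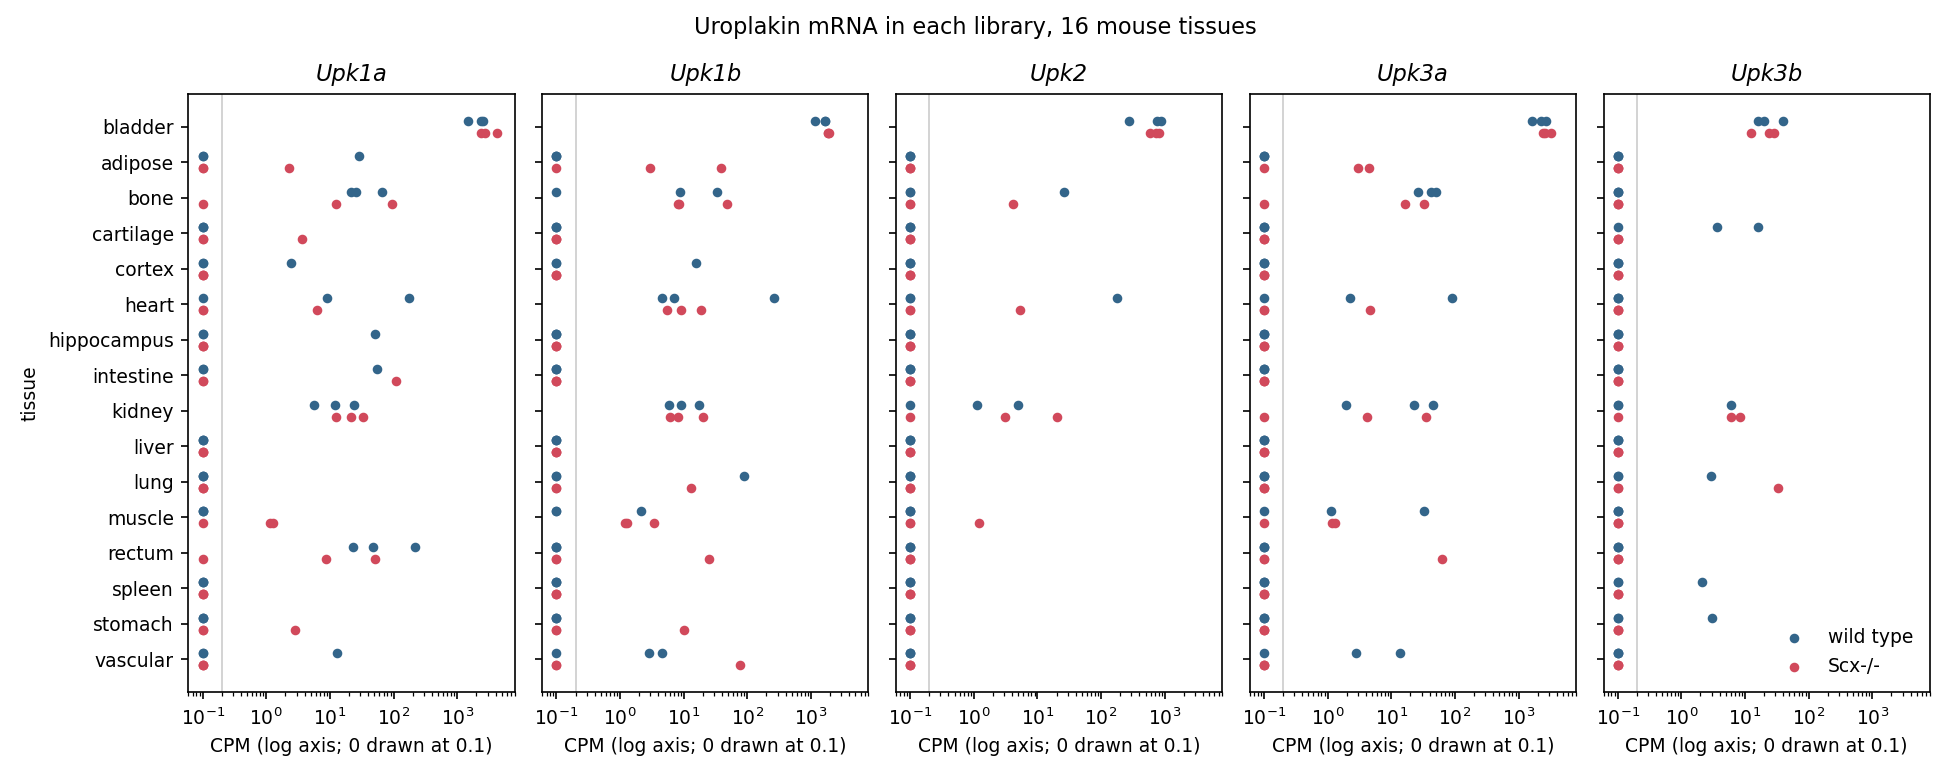
CPM of the 5 uroplakins (log axis, 0 drawn at 0.1) in each library of the 16 tissues, blue for wild type and red for Scx-/-, 3 libraries per genotype. Bladder values of the 4 plaque genes lie to the right of all others, whereas those of Upk3b (12.5 to 39.1 CPM) meet a lung library at 33.1 CPM.

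Upk1a, the tetraspanin that pairs with Upk2, was at 2560, 2390, and 1475 CPM in the wild-type bladder libraries and at 2358, 2699, and 4206 CPM in the Scx-/- ones. Its partner Upk2 was at 757, 873, and 279 CPM in wild type and at 734, 577, and 823 CPM in Scx-/- bladder. Wild-type replicate 3 was the lowest library for both, and the genotypes overlapped.

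Upk1b, the tetraspanin of the other pair, was at 1653, 1663, and 1143 CPM in wild-type bladder and at 1871, 1897, and 1852 CPM in Scx-/- bladder. The 3 Scx-/- libraries lay above the 3 wild-type ones, as they did for 3.56% of all genes tested in bladder. Its partner Upk3a was at 2243, 2709, and 1630 CPM in wild type and at 3182, 2593, and 2448 CPM in Scx-/- bladder, where the ranges overlapped. Upk3b, the alternative partner, was at 39.1, 19.6, and 16.01 CPM in wild type and at 24.2, 12.5, and 28.8 CPM in Scx-/- bladder. These are 4 to 23 counts per library, so its values carry a large counting error, and the genotypes overlapped widely.

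**Figure D2:**
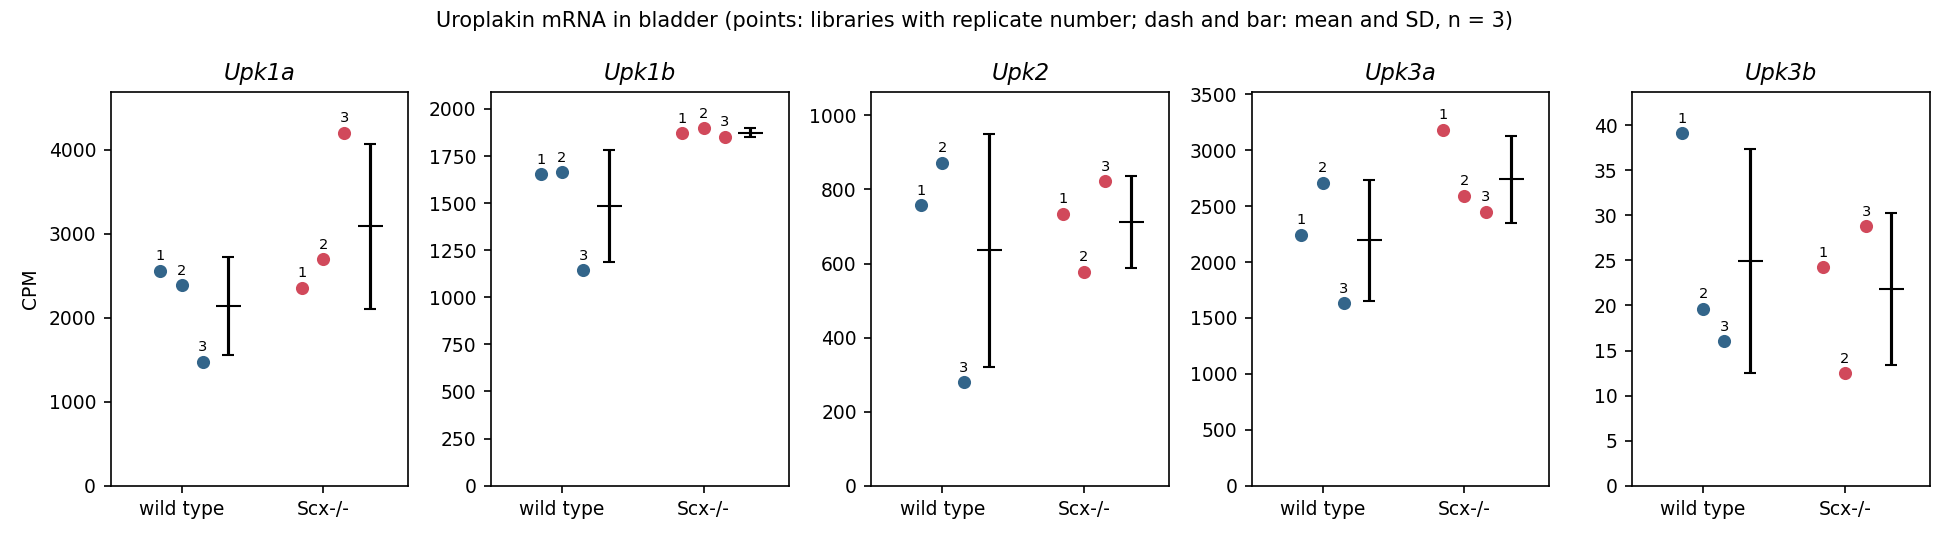
CPM of each uroplakin in the 6 bladder libraries (linear axes from 0, a separate scale for each gene), with replicate numbers beside the points and the mean and SD (n = 3) of each genotype. Wild-type replicate 3 is lowest for all 4 plaque genes, and Upk1b is the gene whose genotypes do not overlap.

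To ask how far bladder stood above each other tissue, the 6 bladder libraries were compared with the 6 of that tissue in edgeR (quasi-likelihood F-test, p adjusted over all genes tested by Benjamini-Hochberg). All 60 comparisons of the plaque genes with the 15 tissues were called higher in bladder (adjusted p under 0.05), against a much lower share of all genes tested. That share was 1.86% for rectum, 4.5% for stomach, 4.53% for lung, 4.78% for bone, 5.08% for cartilage, 5.39% for vascular tissue, 6.4% for muscle, and 7% for heart. It was 7.27% for kidney, 7.88% for adipose, 8.38% for spleen, 9.36% for intestine, 10.5% for hippocampus, 11.2% for cortex, and 12.1% for liver. The largest adjusted p among them was 0.000117 for Upk1a, 3.28e-05 for Upk1b, 1.44e-18 for Upk2, and 0.000149 for Upk3a. The smallest fitted log2 differences were 6.43 for Upk1a (rectum), 6.17 for Upk1b (adipose), 6.73 for Upk2 (bone), and 6.62 for Upk3a (bone).

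Upk3b was called higher in bladder than in 10 of the 15 tissues. The comparisons that missed the threshold of edgeR's quasi-likelihood test were lung (log2 difference 2.23 ± 1.45 SE, adjusted p = 0.39), cartilage (3.00 ± 1.6, adjusted p = 0.27), kidney (2.83 ± 1.29, adjusted p = 0.13), bone (adjusted p = 0.057), and adipose (adjusted p = 0.052). Bone and adipose held no Upk3b read, so bladder was at least 5.08-fold higher than bone against a floor of 3 counts over the bone libraries. Upk3b calls depended on single bladder libraries: leaving out 1 of the 6 gave 65 to 69 calls over the 5 genes in place of 70. Among the calls, those against intestine, rectum, spleen, stomach, and vascular tissue were lost without wild-type bladder replicate 1, with adjusted p of 0.0557, 0.103, 0.0899, 0.11, and 0.0832. The rectum call was lost without any 1 of the 6, and those against spleen, stomach, and vascular tissue also without wild-type replicate 2, Scx-/- replicate 1, or Scx-/- replicate 3.

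A gene called higher in bladder than in all 15 other tissues was rare: 63 of 22493 genes (0.28%) passed, the 4 plaque genes among them and Upk3b not. Ranked by the smallest of their 15 fitted log2 differences, the plaque genes held places 1 to 4, in the order Upk2, Upk3a, Upk1a, and Upk1b. Fitted differences against a tissue without counts depend on the prior count of the model, so this order is a description. From the list of 30 other urothelial genes, Krt7, a keratin of simple epithelium, Gata3 and Grhl3, transcription factors of urothelial differentiation, Snx31, a sorting nexin of umbrella cells, Cldn4, a tight junction protein, and Ivl, a cornified envelope precursor, also passed in all 15.

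The order of tissues below bladder differed between the genes. Upk1a came next in rectum (mean 58.6 ± 82.2 CPM, SD, n = 6), bone (36.9 ± 36.2), and heart (32.2 ± 71.5). Without wild-type replicate 3 the rectum mean was 26.1 ± 22.9 CPM (n = 5), below bone. Upk1b came next in heart (52.0 ± 105 CPM) and bone (17.6 ± 18.4). The heart means rested on wild-type replicate 2, the smallest library, without which Upk1b was at 8.99 ± 5.74 CPM in heart (n = 5), and with libraries pooled lung (36.8 CPM) was next for Upk1b, with heart at 10.02 CPM. Of the 33 lung counts 30 came from wild-type replicate 1, without which lung was at 5.40 CPM, below heart. Upk2 came next in heart (30.5 ± 72.2 CPM), bone (5.03 ± 10.4), and kidney (4.87 ± 7.71), and without wild-type replicate 2 it was at 1.077 ± 2.41 CPM in heart (n = 5). Upk3a came next in bone (27.9 ± 18.1 CPM) and kidney (18.2 ± 19.1), and Upk3b in lung (5.997 ± 13.3) and kidney (3.39 ± 3.80). The ranges of these neighbours overlapped in every case, so their order below bladder was not resolved.

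Kidney, which drains into a renal pelvis lined by urothelium, held 190 plaque uroplakin reads, the most outside bladder, over 3583174 counts in 6 libraries. Pooled over libraries this was 53.0 CPM, below the 68.3 CPM of bone (43 reads). Upk1a had 24, 5, and 8 counts in the wild-type kidney libraries and 15, 7, and 3 in the Scx-/- ones, and Upk1b had 18, 8, and 4 and then 9, 2, and 2. Both were read in all 6 kidney libraries. Upk2 had 5, 1, and 0 counts in wild type and 9, 1, and 0 in Scx-/- kidney. Upk3a had 2, 20, and 30 counts in wild type and 16, 0, and 1 in Scx-/- kidney, with 0 in 1 library and 30 in another. Bladder was above kidney by a log2 difference of 7.02 ± 0.24 (SE) for Upk1a, 6.99 ± 0.27 for Upk1b, 6.98 ± 0.37 for Upk2, and 6.87 ± 0.78 for Upk3a. Of the 30 other urothelial genes, 17 were higher and 2 lower in bladder than in kidney (median log2 difference 2.95, against -0.01 over all genes tested, of which 7.27% were higher and 8.4% lower). In whole organs, fewer urothelial cells and less RNA per urothelial cell cannot be told apart.

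The make-up of the plaque reads was then compared between tissues, because each library carries its own ratio of the 4 genes. In bladder, 34.1% of the 18616 plaque counts were Upk1a, 22.7% Upk1b, 9.37% Upk2, and 33.8% Upk3a. In kidney, the shares were 32.6% (exact 95% binomial interval 26.0 to 39.8), 22.6% (16.9 to 29.2), 8.42% (4.89 to 13.3), and 36.3% (29.5 to 43.6) of 190 counts, and each interval held the bladder share. Bone had 34.9%, 18.6%, 9.30%, and 37.2% of 43 counts, again with intervals that held the bladder shares. Heart differed: of 26 counts, 50% were Upk1b (29.9 to 70.1) and 11.5% Upk3a (2.45 to 30.2), intervals that did not hold the bladder shares.

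**Figure D3:**
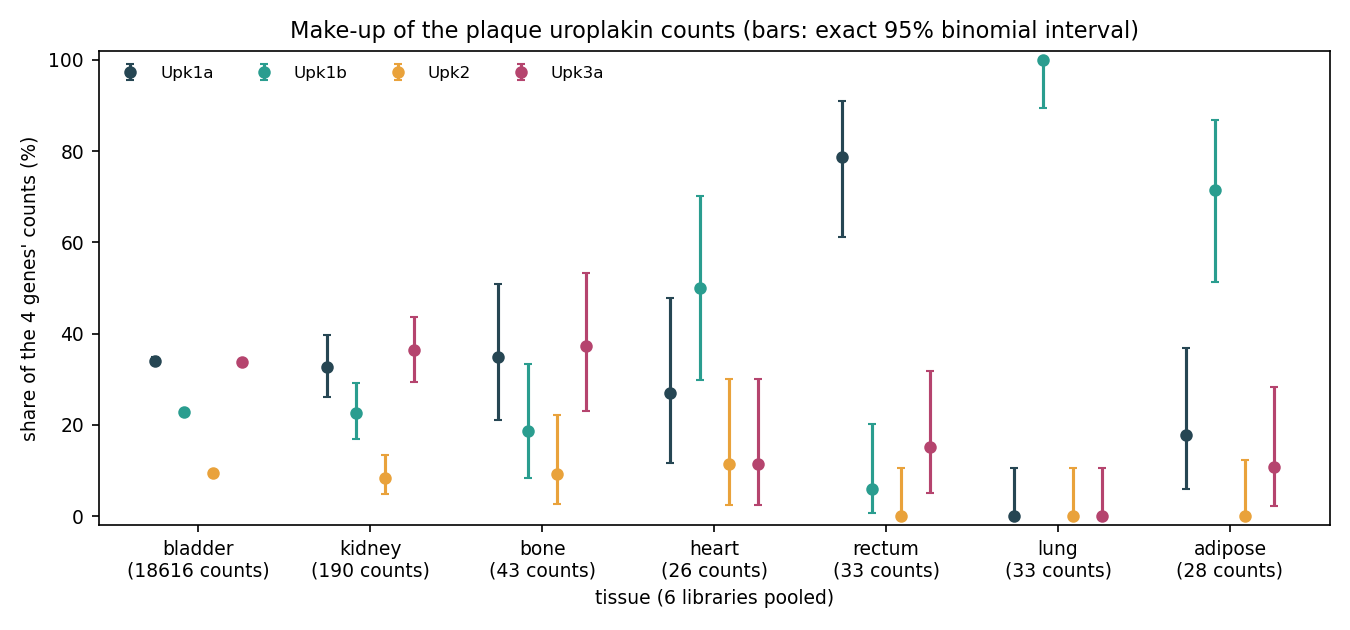
Share of each plaque uroplakin among the counts of the 4 genes, with 6 libraries pooled per tissue and exact 95% binomial intervals. Kidney and bone intervals hold the bladder shares, whereas those of heart for Upk1b and Upk3a do not. Rectum is mostly Upk1a (78.8%) and lung wholly Upk1b (33 of 33 counts).

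The make-up varied between the kidney libraries behind the pooled one. Upk3a took 2 of 49 plaque counts in wild-type kidney replicate 1 (4.08%, exact 95% binomial interval 0.498 to 14.0), 20 of 34 in replicate 2 (58.8%, 40.7 to 75.4), and 30 of 42 in replicate 3 (71.4%, 55.4 to 84.3). These intervals do not meet between replicate 1 and the others. In Scx-/- kidney, Upk3a took 16 of 49 counts in replicate 1 (32.7%, 19.9 to 47.5), close to the pooled share, 0 of 10 in replicate 2, and 1 of 6 in replicate 3. In the bladder libraries the Upk3a share ran from 26.2% to 39.1%, that of Upk1a from 28.9% to 45.1%, that of Upk1b from 19.9% to 25.3%, and that of Upk2 from 6.16% to 11.4%. Bladder libraries also differed beyond counting error, as for Upk3a between Scx-/- replicate 1 (39.1%, 37.4 to 40.7) and replicate 3 (26.2%, 24.4 to 28.1).

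**Figure D4:**
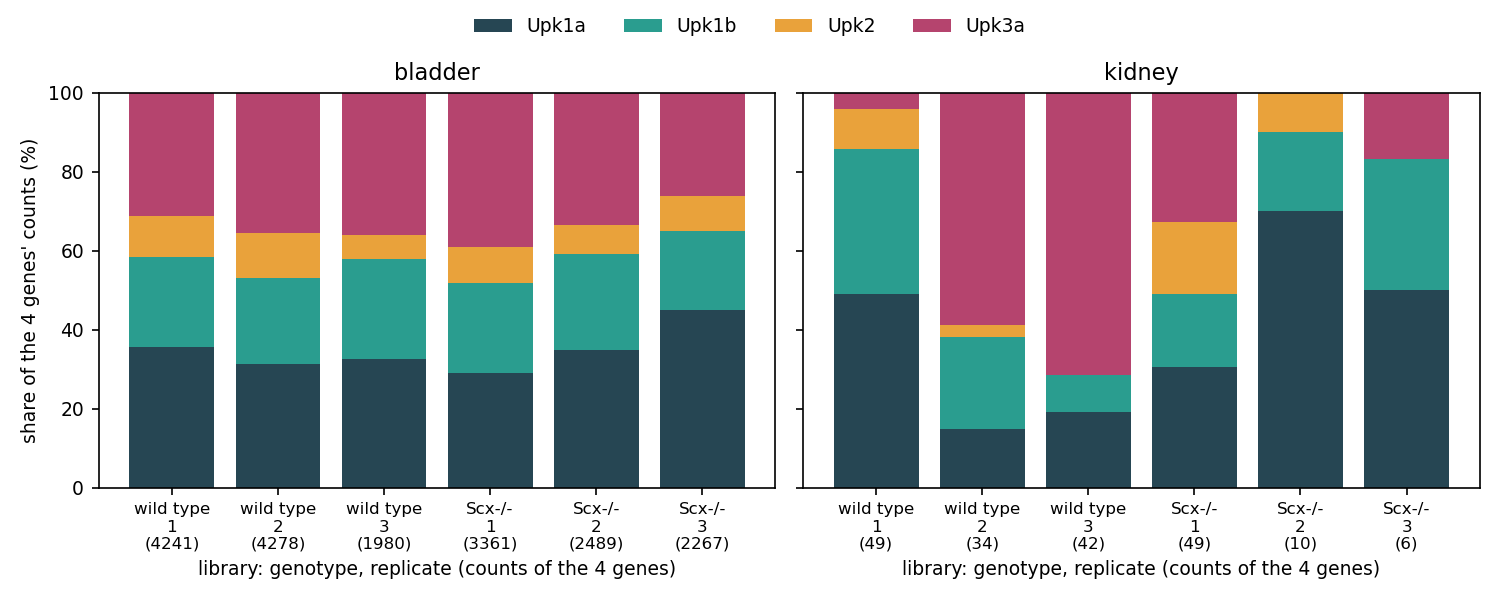
Make-up of the plaque uroplakin counts in each bladder (left) and kidney (right) library, with the number of counts in brackets. In bladder Upk3a runs from 26.2% to 39.1%, and in kidney from 0 of 10 counts to 30 of 42.

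Bone, heart, and muscle, like kidney, held reads of all 4 plaque genes, whereas in the other 11 tissues Upk2 was at 0. Of these 11, 9 held reads of Upk1a or Upk1b, and 3 of the 9 (rectum, adipose, and vascular tissue) also held Upk3a. Hippocampus held 6 counts of Upk1a alone, cortex 4 of Upk1a and 10 of Upk1b, and stomach 2 and 7. In rectum, Upk1a held 26 of 33 plaque counts (78.8%, interval 61.1 to 91.0), and Upk1a was read in 5 of the 6 libraries. Upk2, its partner, was at 0 in all 6 rectum libraries, while 3 counts over the group would be 3.08 CPM. The 2 counts of Upk1b and the 5 of Upk3a in rectum came from Scx-/- replicate 1, the library with few smooth muscle reads. The 10 stratified squamous genes added up to 7165 to 18219 CPM in the Scx-/- rectum libraries, highest in replicate 1, and to 40.2 to 120 CPM in the wild-type ones, and their part in the rectum values was not tested. In intestine, all 13 plaque counts were Upk1a, in 2 libraries. The highest value of Upk1a outside bladder was 11 counts (221 CPM) in wild-type rectum replicate 3.

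In lung, all 33 plaque counts were Upk1b, 30 of them in wild-type replicate 1 and 3 in Scx-/- replicate 2. Upk1a, Upk2, and Upk3a were at 0 in all 6 lung libraries, where 3 counts would be 3.34 CPM. In adipose, 20 of 28 plaque counts were Upk1b and 0 were Upk2. In both tissues 1 library held most of the Upk1b reads.

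Heart held 7 counts of Upk1a, 13 of Upk1b, 3 of Upk2, and 3 of Upk3a. Of these 26 counts, 8 came from wild-type replicate 2, where a single count is 88.9 CPM, and this library gave the highest value outside bladder of Upk1b (267 CPM, 3 counts), Upk2 (178 CPM, 2 counts), and Upk3a (88.9 CPM, 1 count). The same library had 22 counts of Actg2, the enteric smooth muscle actin that was highest in bladder (1957 CPM, against 4.57 to 138 CPM in the other heart libraries). Rectum also held Actg2, at up to 5767 CPM against 4489 to 16002 CPM in the bladder libraries. In bone, Actg2 had 13, 22, and 9 counts in wild type and 3, 16, and 2 in Scx-/- libraries, and 5 of the 6 bone libraries held Upk1a. The part of RNA from other organs in the heart and bone reads was not tested. Liver held no read of any uroplakin. Pooled bladder was 2434-fold a floor of 3 counts over the liver libraries for Upk1a and 2411-fold for Upk3a. Spleen held 0 plaque reads and 1 count of Upk3b.

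Upk3b was read outside bladder in 9 of 90 libraries, 20 counts in all. Lung held 5 of them, 1 in wild-type replicate 1 and 4 in Scx-/- replicate 1, kidney 8, cartilage 5, and stomach and spleen 1 each. Of the 18 mesothelial genes, the most abundant in lung were Podxl, a sialomucin (244 ± 111 CPM, SD, n = 6), the keratins Krt19 (172 ± 130) and Krt8 (141 ± 85.1), and Efemp1, a matrix protein (140 ± 43.7). Msln, the mesothelial surface protein mesothelin, had 28, 2, and 0 counts in the wild-type lung libraries and 4, 25, and 2 in the Scx-/- ones. In bladder, where Upk3b was highest, 17 of the 18 genes had reads. Of the 18, 3 keratins are also on the urothelial list, and the sum of the other 15 was 262 to 691 CPM in the bladder libraries and 492 to 889 CPM in the lung libraries, which overlapped. With the keratins the sums were 2072 to 3493 CPM in bladder and 950 to 1152 CPM in lung. Of the 18 genes, 5 were highest in bladder of all tissues, and how many of all genes were so was not counted. They were Krt18, also on the urothelial list, Efemp1 (167 CPM), and the mesothelial transcription factor Wt1 (42.3 CPM). The others were Aldh1a2, an enzyme of retinoic acid synthesis (32.95 CPM), and Muc16 (2.83 CPM, with reads in wild-type replicate 1 alone). Msln was at 4.01 CPM and Calb2 at 0 in bladder. The part of mesothelial RNA in the Upk3b values was not tested.

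To ask whether loss of Scx moved the uroplakins, Scx-/- was compared with wild type within each tissue by edgeR's quasi-likelihood test. Of 80 pairs of a gene and a tissue, 43 had reads to test, and 0 were called, with a lowest adjusted p of 0.614. At an unadjusted p under 0.05 there was 1 pair, Upk1a in bladder, by edgeR and likewise 1 by DESeq2, which called 0 after adjustment. In bladder, 0.112% of all genes tested were called and 4.33% had an unadjusted p under 0.05. The share called was 0.195% in kidney, 0.442% in liver, 0.441% in rectum, 0.0609% in stomach, 0.0482% in muscle, 0.0391% in heart, 0.0329% in vascular tissue, and 0.0222% in cartilage. It was 0.0091% in adipose, 0.00727% in lung, 0.0072% in spleen, 0.00708% in hippocampus, and 0% in bone, cortex, and intestine. A simulation of this bladder comparison recovered 18 of 100 genes changed 4-fold and 70 of 100 changed 16-fold. The changed genes were drawn from those above a minimum of summed counts, so genes with fewer reads were left out. The plaque genes in bladder have the intervals given next.

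In bladder, the log2 difference of Scx-/- over wild type was 0.44 for Upk1a (95% interval 0.014 to 0.86, adjusted p = 0.804 by edgeR), 0.26 for Upk1b (-0.20 to 0.72, adjusted p = 0.808), and 0.07 for Upk2 (-0.49 to 0.63, adjusted p = 0.977). It was 0.24 for Upk3a (-0.18 to 0.67, adjusted p = 0.808) and -0.28 for Upk3b (-3.12 to 2.56, adjusted p = 0.982). The interval of Upk3b spans both directions widely, while those of the plaque genes have upper limits of 0.63 to 0.86. Single libraries moved each of these values. Over the alternatives the difference ran from 0.19 to 0.59 for Upk1a, from 0.087 to 0.36 for Upk1b, and from 0.059 to 0.44 for Upk3a. That of Upk1a was lowest without Scx-/- replicate 3. Without wild-type replicate 3, the library low in all plaque genes, it was 0.22 for Upk1a, 0.087 for Upk1b, 0.059 for Upk3a, and -0.29 for Upk2 (adjusted p = 0.93 by edgeR for Upk2). Upk1b in bladder, the 1 of the 43 pairs whose genotypes did not overlap on CPM, did not pass the test.

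Summed over the 5 genes, uroplakins took 6484 ± 1692 CPM in wild-type and 8436 ± 822 CPM in Scx-/- bladder (SD, n = 3). The 30 other urothelial genes added up to 10068 ± 406 and 13176 ± 1717 CPM. Neither sum overlapped between the genotypes: uroplakins ran from 4544 to 7655 CPM in wild type and from 7780 to 9358 CPM in Scx-/-, and the other urothelial genes from 9650 to 10462 and from 11319 to 14705 CPM. Of single genes tested in bladder, 3.56% lay higher in Scx-/- without overlap, and no such share was computed for sums. Of these 30, 29 were tested and 0 were called, with a median log2 difference of 0.27 against -0.14 over all genes tested, and 21 of 29 were positive. The 4 most abundant were Sprr1a, a cornified envelope protein (3213 CPM in wild type and 4220 in Scx-/-), Krt7 (1026 and 1679), Psca, a surface antigen (1015 and 1334), and Krt18, a keratin of simple epithelium (797 and 1103). Krt13 was at 0 in both genotypes. Uroplakins relative to the other urothelial genes stood at 0.719, 0.732, and 0.471 in wild type and at 0.556, 0.687, and 0.693 in Scx-/- bladder, and these ratios overlapped.

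Among the genes of other cell types, calls were limited to fibroblast genes. Of 10 tested, 4 fell in Scx-/- bladder: the collagens Col1a1 (log2 difference -0.96), Col1a2 (-0.97), and Col3a1 (-1.05), and Dpt, dermatopontin of the matrix (-1.55, adjusted p = 0.044 by edgeR), where 0.0792% of all genes tested fell. The fibroblast sum was 39094 ± 7383 CPM in wild type and 22791 ± 2020 CPM in Scx-/- bladder, also without overlap. Of 12 smooth muscle genes, 0 were called (median -0.14), with Acta2 at 12565 and 11266 CPM and Actg2 at 9521 and 8098 CPM. CPM are shares of a library, and the part of the collagen reads in the uroplakin values was not tested.

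**Figure D5:**
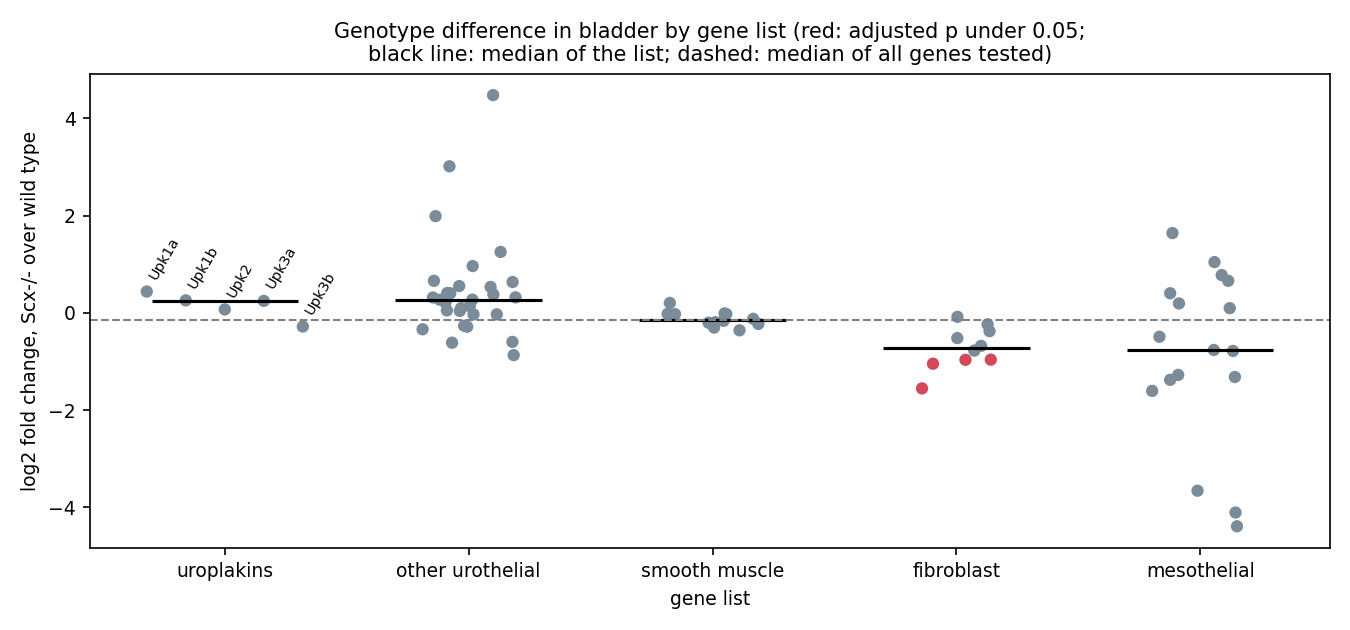
Log2 fold change of Scx-/- over wild type in bladder for each tested gene of 5 lists (red, adjusted p under 0.05), with the median of each list (black) and of all genes tested (dashed, -0.14). The medians of the uroplakins (0.24) and other urothelial genes (0.27) lie above the dashed line, and 4 of 10 fibroblast genes are called below it.

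The remaining lists held no call in bladder. Mesothelial genes had a median of -0.76 over 17 tested, immune cell genes -0.94 over 7 (C1qb of macrophages, 92.1 and 48.6 CPM, and Tyrobp, 95.4 and 14.8 CPM), and skeletal muscle genes -0.44 over 10 (Acta1, 1688 and 1128 CPM, and Ckm, 416 and 378 CPM). Stratified squamous genes had a median of 0.11 over 5 (Krt15, 879 and 1069 CPM, and Sfn, 202 and 230 CPM), and pancreatic acinar genes 0.67 over 9 (Cela1, 91.6 and 213 CPM, and Ctrb1, 50.8 and 152 CPM). Ctrb1 was at 43.6, 90.5, and 321 CPM in the Scx-/- libraries, so its mean rested on replicate 3.

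Because uroplakins leave the cell's interior as pairs, the ratio of partners was followed within each bladder library, and with it that of Upk3b to Upk3a, which take the same place beside Upk1b. Upk1b to Upk3a stood at 0.737, 0.614, and 0.701 in wild type and at 0.588, 0.732, and 0.756 in Scx-/- bladder. The highest was 1.29-fold the lowest, less than the spread of the CPM of Upk1b (1.66-fold) or Upk3a (1.95-fold). Upk1a to Upk2 stood at 3.38, 2.74, and 5.29 in wild type and at 3.21, 4.68, and 5.11 in Scx-/- bladder, a 1.93-fold spread against 2.85-fold and 3.13-fold for the CPM. The 4 ratios of plaque genes that are not partners spread 1.80-fold to 2.32-fold, so the spread of Upk1a to Upk2 lay among them, and that of Upk1b to Upk3a below them. Upk3b to Upk3a ranged from 0.00481 to 0.0174, a 3.62-fold spread that was above that of either gene.

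The log2 ratio of Scx-/- minus wild type was 0.22 for Upk1a to Upk2 (exact two-sided permutation test, p = 0.7), 0.01 for Upk1b to Upk3a (p = 1), and -0.51 for Upk3b to Upk3a (p = 0.5). Leaving out 1 library moved that of Upk1a to Upk2 down to 0.0071 when wild-type replicate 2 was omitted and up to 0.48 when replicate 3 was. It moved that of Upk3b to Upk3a between -0.83 (without Scx-/- replicate 3) and -0.16 (without wild-type replicate 1). With 3 against 3 libraries the smallest p this test allows is 0.1, so it could not have called a difference of any size.

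Likeness to each uroplakin was measured as Pearson's r of log2(CPM + 1) over the 32 group means, which share their bladder libraries, among 17412 genes with at least 10 CPM in a group. The genes most like Upk2 were Hoxa11, a homeobox factor of posterior body regions (r = 0.92), Upk3a (0.90), and Ooep, an oocyte-expressed gene (0.87). Outside bladder the highest group mean was 59.3 CPM for Upk2, from 2 counts in 1 wild-type heart library, and 29.6 CPM for Hoxa11. Upk3a was most like Upk2 (0.90), Hoxa11 (0.90), and Upk1b (0.85), and Upk1b most like Upk2 (0.86), Upk3a (0.85), and Hoxa11 (0.81). Upk1a was most like Cldn4 (0.82), Upk2 (0.81), and Upk3a (0.80), and less like Upk1b (0.66). Upk3b had r of 0.46 to 0.66 to the plaque genes. Its closest genes were Igf2bp1, an RNA-binding protein (0.87), C130026I21Rik (0.83), and LOC108167736 (0.80). The 2 bladder groups entered each r: over the other 30 groups r of the 15 pairs named here was 0.36 to 0.84, Ooep and C130026I21Rik reached 10 CPM in bladder alone, and a ranking without bladder, chosen after seeing the data, kept 2 of the 15. The order depended on the scale: on CPM without a logarithm, 3 of the 15 pairs named here stayed. On that scale r of Upk3b to the plaque genes was 0.89 to 0.91, and that of Upk1a to Upk1b was 0.997.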

How the data were processed

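Total RNA of whole frozen organs was reverse transcribed with sample barcodes, pooled, and sequenced. The authors aligned the reads with Bowtie2 (mm10, default settings), HTSeq assigned them to genes, and the deposited values are raw counts per gene. For tool versions, annotation, and strand the setting was not given in the sources used here. Groups come from the sample labels. From the counts, CPM used library totals, and edgeR 4.0.16 (R 4.3.3; TMM factors, glmQLFit, glmQLFTest) compared genotypes within a tissue and bladder with each tissue, over all genes with a count in the libraries compared. DESeq2 1.42.0 was an alternative. Python 3.11.15 with scipy 1.17.1 gave exact tests and intervals. Fits were tested on simulated data. The uroplakins and gene lists were chosen with earlier results of these data known. Named genes are the uroplakins, Scx, the 3 genes most like each member, the 4 most abundant urothelial genes in bladder and mesothelial genes in lung, listed genes that were called, and the 2 most abundant of other lists; of the called urothelial genes, those higher in bladder than in all 15 tissues are named. Msln, Calb2, Wt1, Aldh1a2, and Muc16 were added after their values were seen.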

Additional observations from a re-analysis of the deposited data

How the results depend on the processing

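Calls of bladder against other tissues ranged from 60 to 70 of 75 over the alternatives: RLE size factors gave 69, library totals 70, DESeq2 70, filterByExpr, which leaves Upk3b untested, 60, and libraries with at least 50000 counts, a setting chosen after seeing the data, 68. Where both fits gave an adjusted p, calls changed for Upk3b, lost in 27 and gained in 2 combinations of tissue and setting, and for no plaque gene. DESeq2 gave no p for Upk1b against lung. Genotype calls stayed at 0 in every setting. Leaving out single libraries gave 65 to 69 tissue calls and 0 genotype calls. It moved the bladder genotype difference (log2) of Upk2 between -0.29 and 0.38, below 0 when wild-type or Scx-/- replicate 3 was omitted, that of Upk3b between -0.52 and 0.20, above 0 when wild-type replicate 1 was omitted, and the log2 ratio difference of Upk1b to Upk3a between -0.064 and 0.13. The Upk1b mean in Scx-/- bladder was 1662 CPM on TMM-scaled totals, against 1873. Likeness on CPM without a logarithm kept 3 of the 15 pairs of a uroplakin and a named gene. Likeness over the groups outside bladder, chosen after seeing the data, kept 2. With the replicate number as a block, 66 of 75 tissue calls and 0 genotype calls were made, and bladder genotype calls over all genes stayed at 17. The block lost the Upk3b calls against rectum (adjusted p = 0.114 by edgeR), spleen (0.0598), stomach (0.0679), and vascular tissue (0.0818). Same-numbered libraries deviated together with correlations of -0.02 to 0.06 (bladder against a tissue) and -0.19 to 0.04 (genotypes). Differently numbered libraries were not compared, so these values cannot tell whether the numbers pair the libraries. Depth limits Upk3b most, at 4 to 23 counts per bladder library.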
